A study of Mus musculus with 11 samples.

Results

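Potassium channels set how far and how long a sensory neuron can fire, and 38 genes for their pore-forming and auxiliary subunits were followed here through the neurons of the mouse trigeminal ganglion. The genes were taken from a list of symbols and grouped by family. They comprised 11 voltage-gated pore genes of the Kcna, Kcnb, Kcnc and Kcnd groups, 5 electrically silent subunits (Kcng, Kcns and Kcnv), 4 Kv channel interacting proteins (Kcnip), 2 KCNQ genes, 5 KCNH genes, 3 two-pore genes (Kcnk), 2 G protein-gated inward rectifiers (Kcnj), 4 calcium-activated genes (Kcnma1 and Kcnn) and 2 sodium-activated genes (Kcnt). All 38 were listed in each of the 7 10x tables, of 24243 gene symbols listed in the series, and 37 were listed in the Drop-seq table, which held no row for Kcna1.

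The study asked how trigeminal neurons change after their axons are damaged. The ganglion holds cell bodies of the neurons that sense touch, pain, itch and temperature of the face. Nuclei were purified with an anti-NeuN antibody from pooled ganglia of male and female mice aged over 6 weeks, and each condition was 1 10x library. The conditions were wildtype C57BL controls, infraorbital nerve transection (IOT, in which branches of the nerve to the whisker pad are cut) 2, 7, 21 and 75 days before harvest, minor facial injury (3 cuts on each cheek and 2 on the forehead, C57BL), and chronic scratching with facial lesions. The IOT mice were C57BL as well, whereas the scratching mice were a mixed FVBN/C57BL/129 strain carrying Fos-tTA and a tetO-driven mCherry-2A-Gnaq allele, in which no mCherry was detected in sensory neurons by the authors. An uninjured Drop-seq table pooled 4 further wildtype libraries that could not be told apart. Since every condition was 1 library of pooled mice, no test was made between single conditions. The tests below compare nuclei within libraries, and, for IOT against the milder injuries and for the days after IOT, how that within-library difference varied. The spread between libraries mixes mice, surgery and library preparation.

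Voltage-gated potassium channels open on depolarization and repolarize the membrane. Kv1 and KCNQ channels open near threshold and restrain firing, the Kv4 channels carry the rapidly inactivating A-current and bind the KChIP proteins encoded by Kcnip genes, and the Kv3 channels allow fast repetitive spiking. Silent subunits form no channel alone but join Kv2 subunits, KCNH genes encode the Eag, Erg and Elk channels, two-pore channels carry background current, and calcium- or sodium-activated channels shape the afterhyperpolarization. Loss of potassium channel transcripts from the ganglion after axotomy is a known feature of nerve injury in rodents.

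The 7 10x libraries held 37181 nuclei, with 9135460 to 22003842 UMIs in a library and a median of 1747 to 4178.5 UMIs per nucleus. IOT day 7 was the shallowest. Pairs of 10x libraries shared 16 to 92 cell barcodes, at most 1.37% of the smaller library. A nucleus was called injured where it held 2 or more UMIs of Atf3 and Sema6a together, which encode an injury-induced transcription factor and a semaphorin, and uninjured where it held 0. Called nuclei were deeper in every 10x library, with a median of 4188 against 3048.5 UMIs at IOT day 2 and 4724 against 3135.5 in the control. The injured share was 17.9% (95% Clopper-Pearson interval 16.8 to 19.1%) at IOT day 2, 10.8% (9.82 to 11.8%) at day 7, 9.05% (8.18 to 9.97%) at day 21 and 8.31% (7.43 to 9.26%) at day 75. It was 2.32% (2.01 to 2.66%) after facial injury, 4.10% (3.67 to 4.56%) with scratch lesions and 2.56% (2.12 to 3.08%) in the control, so facial injury did not exceed the control by this rule. Of the 112 called control nuclei 83.9% lay in clusters counted as large neurons (defined below), against 51.3% of uninjured ones. Of the same 112, 1 lay in a cluster that carried the wider injury program. In the injured libraries the share of called nuclei lying in such clusters was 65.4% at day 2, 84.3% at day 7, 56.3% at day 21, 28.8% at day 75, 45.3% after facial injury and 44.2% with scratch lesions. After IOT, Sox11, a regeneration-associated transcription factor, was 5.01-fold higher in the injured nuclei and Scn10a, a nociceptor sodium channel, 3.47-fold lower (edgeR, adjusted p = 8.87e-08 and 1.23e-05). Called control nuclei had 180 CPM (UMIs scaled to a total of 1e6) of Scn10a against 574 CPM in uninjured ones. Scn10a was thus also lower in called nuclei without injury. For Sox11 the control values were 46.2 and 63.3 CPM, with no rise. Satellite glia markers summed to 442 to 1088 CPM in the called nuclei and 334 to 930 CPM in the uninjured nuclei of the 7 libraries, and Schwann cell markers to 470 to 1265 and 479 to 1309 CPM. The satellite glia sum was higher in called than in uninjured nuclei in 7 of 7 libraries, and the Schwann cell sum in 2 of 7. All 6 markers of either list were detected in every one of these sums. Fibroblast markers summed to 55.1 to 163 and 83.3 to 199.998 CPM, vascular markers to 30.8 to 80.0 and 35.4 to 60.5 CPM, and leukocyte markers to 8.94 to 33.9 and 9.68 to 16.2 CPM, with up to 1 vascular and 2 leukocyte markers at 0 in called nuclei. Their part in the results below was not tested.

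The promoter windows of 3 genes, each spanning 250 bases before to 50 after a transcription start in RefSeq (GRCm38.p6, shown 5′ to 3′ on the gene's strand), show what lies at the start of a gene that fell most after injury (Kcnq5), of a gene that rose (Kcnma1) and of a gene that fell and holds a match to TGANTCA, a loose form of the AP-1 site (Kcnip4, match in capitals). The Kcnma1 and Kcnip4 windows lie at starts inside the longest gene bounds. They lie at chr1:21961893-21962192, chr14:24004156-24004455 and chr5:49285610-49285909, all on the minus strand.
Kcnq5: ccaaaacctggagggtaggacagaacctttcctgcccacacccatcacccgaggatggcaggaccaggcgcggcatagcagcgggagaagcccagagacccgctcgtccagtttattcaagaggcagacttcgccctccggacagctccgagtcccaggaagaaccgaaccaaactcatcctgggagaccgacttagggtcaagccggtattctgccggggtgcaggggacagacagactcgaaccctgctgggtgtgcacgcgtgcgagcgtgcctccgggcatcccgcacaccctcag
Kcnma1: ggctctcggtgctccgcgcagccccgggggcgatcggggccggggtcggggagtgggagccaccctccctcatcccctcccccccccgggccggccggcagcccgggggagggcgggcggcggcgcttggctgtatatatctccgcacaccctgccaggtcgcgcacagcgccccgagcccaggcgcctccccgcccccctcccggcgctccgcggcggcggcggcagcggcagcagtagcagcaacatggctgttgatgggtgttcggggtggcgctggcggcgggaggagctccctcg
Kcnip4: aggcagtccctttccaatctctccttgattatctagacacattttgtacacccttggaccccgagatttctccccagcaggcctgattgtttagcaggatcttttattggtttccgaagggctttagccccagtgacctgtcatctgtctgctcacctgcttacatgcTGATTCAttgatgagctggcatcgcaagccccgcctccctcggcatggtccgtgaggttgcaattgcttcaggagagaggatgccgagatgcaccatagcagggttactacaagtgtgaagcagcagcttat
Atf3 dimers are known to bind cAMP response elements and AP-1 sites. Of the 38 genes, 31 had at least 1 window, 46 windows in all. None of the 46 windows held the letters TGACGTCA on either strand, which 1.79% of all 32851 windows did, and 3 (of Kcnip3, Kcnip4 and Kcnk2) held TGANTCA, against 7.81% of all windows. Neither motif contains the other, and a match is a description of the letters only.

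In uninjured nuclei the potassium channel genes divided the neuron classes. All Kcn genes, Atf3 and Sema6a were left out when nuclei were clustered, and 10 classes were named from marker genes (such as Trpm8 for cold-like and Mrgprd for non-peptidergic-like neurons). Of the 26 clusters, 15 were named, 2 of them as injured, and 11 stayed unnamed, so classes rebuilt here may differ from those of the study. The unnamed clusters held 37.9% of the uninjured 10x nuclei, so a highest class is only the highest of the 10 named classes. The class with the highest mean was the cold-like class for 8 genes, the large mechanoreceptor-like class for 7, the Ntrk2 mechanoreceptor-like and myelinated nociceptor-like classes for 5 each, the C-fiber low-threshold-like class for 4, the itch Mrgpra3-like and non-peptidergic Mrgprd-like classes for 3 each, the peptidergic Adcyap1-like class for 2 and the itch Nppb-like class for 1. The ratio of the highest to the lowest class mean had a median of 12.3 over 37 genes, from 3.49 for Kcnd1 to 59.2 for Kcnj6, and passed 10-fold for 21 (11.8% of all genes with a value in every class did). For 27 genes 1 class was highest in all 7 10x libraries, 26 of them among the 37 genes that passed the filter on low counts, where 9.52% of all such genes showed this. Most other genes could enter the clustering, unlike these, and many have fewer UMIs. Levels are compared between classes of 1 gene only, since counts include introns and long genes collect more UMIs.

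**Figure D1:**
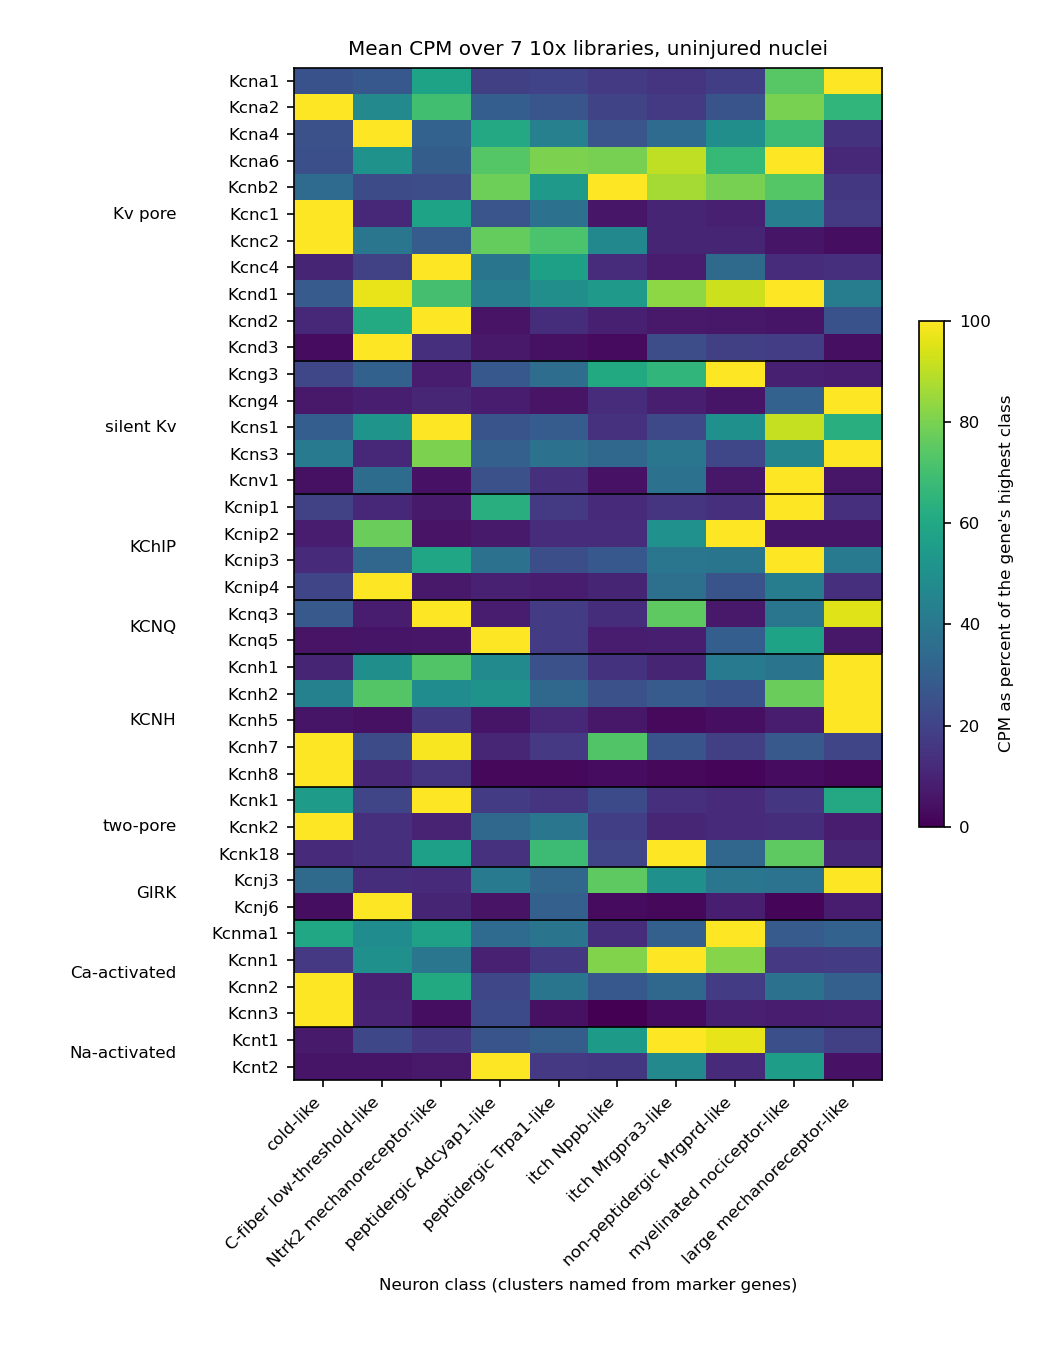
Mean CPM of each gene (rows, by family) in uninjured nuclei of 10 neuron classes (columns) over the 7 10x libraries, as a percent of the gene's highest class. The cold-like class is highest for 8 genes and the large mechanoreceptor-like class for 7, and the highest class of Kcnh8 and of Kcnd3 exceeds the next 6.45-fold and 4.20-fold.

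For 6 genes the highest class had a range over libraries that lay wholly above the range of the class next in order, as for 3.26% of all genes. Kcnh8, an Elk channel, had 672, 800 and 1201 CPM (lowest, median and highest library) in the cold-like class and 73.5, 122 and 212 in the Ntrk2 mechanoreceptor-like class, the next in order. The Eag channel Kcnh5 had 142, 179 and 242 CPM in the large mechanoreceptor-like class and 18.3, 28.5 and 53.7 in the Ntrk2 mechanoreceptor-like class. Both KCNH genes were more than 6-fold higher in 1 class than in the next.
Kcnd3, a Kv4 pore, had 1151, 1364 and 1840 CPM in the C-fiber low-threshold-like class and 259, 333 and 423 in the itch Mrgpra3-like class. Kcnip4, a KChIP that slows the inactivation of Kv4 channels, was highest in the same C-fiber class, with 8726, 12556 and 16954 CPM, and had 4088, 4732 and 7510 in the myelinated nociceptor-like class. A Kv4 pore gene and a KChIP gene therefore had their highest level in the same class. Kcnk2, the mechanically gated two-pore channel TREK, had 283, 339 and 382 CPM in the cold-like class and 93.6, 130 and 177 in the peptidergic Trpa1-like class. Kcnma1, the pore of the large-conductance calcium-activated channel, had 326, 391 and 509 CPM in the non-peptidergic Mrgprd-like class and 171, 249 and 316 in the cold-like class.

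Other genes shared a class without ranges that stood apart. In the cold-like class Kcnc1 and Kcnc2, both Kv3 pores, averaged 169 and 737 CPM and exceeded their next class 1.72-fold and 1.31-fold. Kcnn2 (268 CPM) and the sparse Kcnn3 (8.63 CPM), of the small-conductance calcium-activated family, and Kcna2 (386 CPM) were also highest there. The Erg gene Kcnh7 averaged 3932 CPM in the cold-like and 3888 in the Ntrk2 mechanoreceptor-like class, which do not differ beyond their ranges. The M-current gene Kcnq3 was highest in the Ntrk2 mechanoreceptor-like class (433, 686 and 871 CPM) and almost as high in the large mechanoreceptor-like class (449, 551 and 923), and its relative Kcnq5 was highest in the peptidergic Adcyap1-like class (346, 485 and 637) before the myelinated nociceptor-like class (185, 283 and 473). The 2 KCNQ genes thus had different highest classes. Kcnb2, the Kv2 pore, was highest in the itch Nppb-like class (2542, 3309 and 4263 CPM) and lowest in the large mechanoreceptor-like class. The sodium-activated genes also parted, Kcnt1 being highest in the itch Mrgpra3-like class at 366 CPM and Kcnt2 in the peptidergic Adcyap1-like class at 236 CPM. The pain-related two-pore gene Kcnk18 averaged 31.5 CPM in the itch Mrgpra3-like class and 23.7 in the myelinated nociceptor-like class, with overlapping ranges.

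After IOT the larger part of these genes was lower in injured than in uninjured nuclei of the same libraries. Of the 37 genes that passed the filter on low counts, 26 fell, 5 rose and 6 did not pass the test (edgeR quasi-likelihood test on 8 sums from the 4 IOT libraries and 4 from the milder injuries, library as a block, adjusted p under 0.05 over 15866 genes). Over all genes tested, 7.3% fell and 8.97% rose. The median log2 fold change was -0.69 for the potassium channel genes and -0.0082 for all genes. All 26 genes that fell were lower in 4 of 4 IOT libraries (27 of the 37 genes were, and 20.3% of all genes), and the 5 that rose were higher in 4 of 4 (14.1% of all genes). Kcnn3 was not tested, having at most 4 UMIs in the injured nuclei of any library. For 13 genes every injured IOT value lay below every uninjured one, a pattern of 3.69% of all genes tested, and for 2 every injured value lay above, a pattern of 2.92%. Over all 6 injury libraries these counts were 4 and 1, and 1.05% of all genes in either direction. Over those 6 libraries 25 genes were lower in every library (12.3% of all genes) and 4 were higher (8.53%). Without the library block 3 genes fell, Kcnq5, Kcnt2 and Kcnt1, and 1 rose, Kcnq3 (0.592% and 1.2% of all genes), and without the day 21 library 2 rose, Kcnq3 and Kcnma1.

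**Figure D2:**
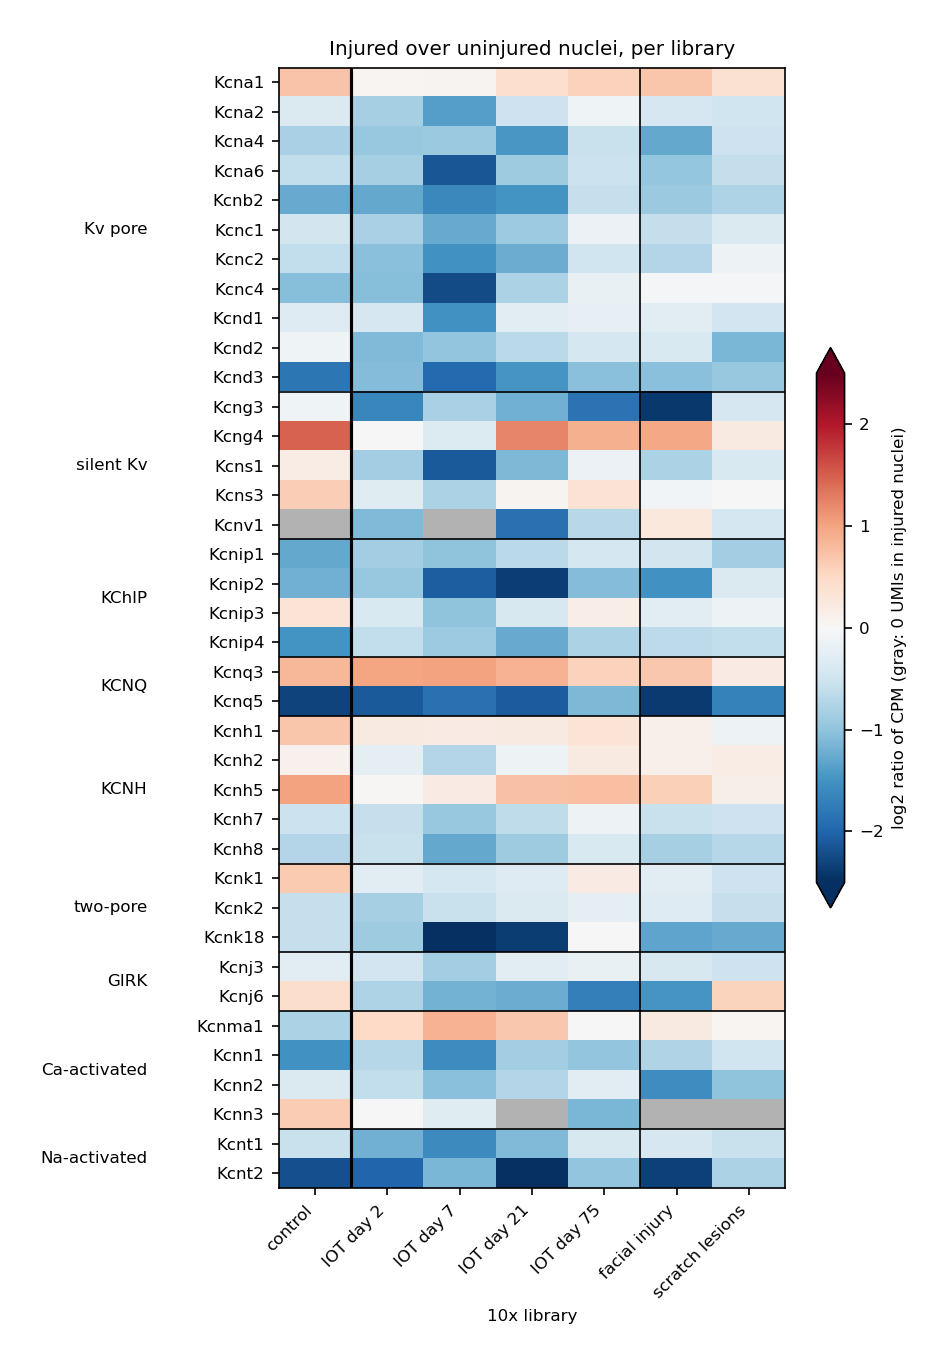
The log2 ratio of CPM in injured (2 or more UMIs of Atf3 and Sema6a) to uninjured nuclei (0 UMIs), for each gene (rows, by family) and 10x library (columns; control apart at the left), with colors capped at 2.5 either way. Blue fills most rows of the 4 IOT columns and is palest at day 75, and the control column, which holds 112 called nuclei, is blue for 25 of 37 genes.

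Control nuclei called by the same rule, from mice with no injury, also had lower levels of many of these genes. The median log2 ratio over the genes was -0.46 in the control, against -0.79, -1.0, -0.78 and -0.24 at IOT days 2, 7, 21 and 75, and 23 of 25 genes that fell and had a value were lower in the called control nuclei. Uninjured nuclei were therefore also restricted to clusters of large neurons and, separately, to clusters of small neurons. Clusters not scored as small counted as large, so the large set also holds the myelinated nociceptor-like and Ntrk2 mechanoreceptor-like classes. Against large neurons 20 genes fell and 4 rose (6% and 7.45% of all genes), and against small neurons 18 fell and 8 rose (14.4% and 17.6%). Kcnq5, Kcnd3, Kcnb2, Kcna6, Kcnip4, Kcnc4, Kcnn2 and Kcnh7 fell, and Kcnq3 rose, in all 3 comparisons. These 8 falls compare with 2.15% of all genes and the 1 rise with 4.67%. Within the large set the classes differed. Kcnb2, Kcnd3, Kcnip4 and Kcna6 averaged 2487, 256, 5486 and 199 CPM in the myelinated nociceptor-like class. In the large mechanoreceptor-like class they averaged 544, 60.4, 1799 and 22.9 CPM. Kcnc4 averaged 26.3 and 27.6 CPM in these classes but 207 CPM in the Ntrk2 mechanoreceptor-like class. Kcnh7 averaged 820 CPM in the large mechanoreceptor-like and 3888 CPM in the Ntrk2 mechanoreceptor-like class. The part of the mix of neurons in these falls was not tested. Where an injured nucleus needed 1 or more UMIs of each of Atf3 and Sema6a, 27 genes fell and 2 rose (9.57% and 10.8%), and where the nuclei of the injured clusters were set against all other clusters, 33 fell and 2 rose (14% and 14.9%). The same 9 genes were called in the same direction in both of these too (2.07% of all genes for a fall and 4.56% for a rise).

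**Figure D3:**
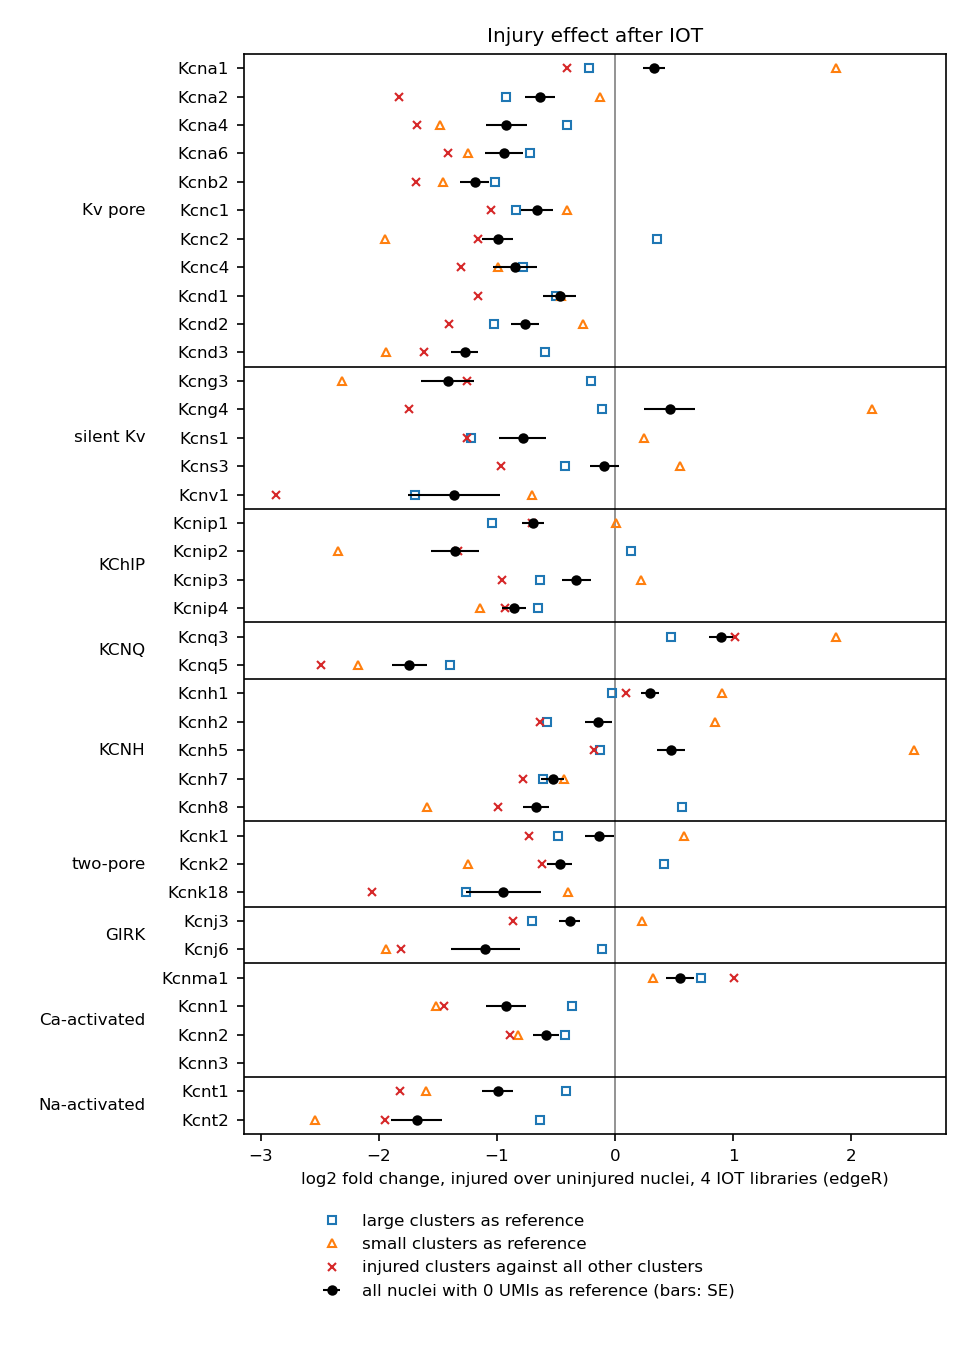
The log2 fold change of injured over uninjured nuclei across the 4 IOT libraries (edgeR) for each gene by family. Black points use all nuclei with 0 UMIs (bars are the SE), squares and triangles use large or small neuron clusters as the uninjured nuclei, and crosses compare injured clusters with all others. All 4 marks of Kcnq5 lie left of -1.3 and all 4 of Kcnq3 right of 0.4, while Kcnc2, Kcnh5 and Kcng4 have marks on both sides of 0.

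The KCNQ genes moved apart. Kcnq5 (chr1:21398403-21961942, minus strand, GENCODE vM21 on GRCm38) had 50.5, 29.4, 45.9 and 79.4 CPM in injured nuclei of IOT days 2, 7, 21 and 75, and 218, 107, 195 and 174 CPM in uninjured nuclei. No injured value reached any uninjured one. It fell 3.34-fold (log2 fold change -1.74, SE 0.15, edgeR adjusted p = 1.29e-06), by 1.39 on the log2 scale against large and 2.2 against small neurons. The called control nuclei had 37.2 CPM against 184 CPM, as large a ratio, while in injured clusters, to which the control added 3 nuclei, the level was 35.6, 17.9, 23.6 and 27.3 CPM. Kcnq3 (chr15:65986387-66286642, minus strand), its partner in M-channels, had 511, 380, 452 and 413 CPM in injured and 259, 188, 247 and 278 CPM in uninjured nuclei. All injured values lay above all uninjured ones. Yet uninjured nuclei averaged 653 CPM of Kcnq3 in the Ntrk2 mechanoreceptor-like and 621 CPM in the large mechanoreceptor-like class, above each of these injured values. Kcnq3 rose 1.87-fold (log2 fold change 0.90, SE 0.10, edgeR adjusted p = 2.06e-05), by 0.48 against large and 1.88 against small neurons. The part of the mix of neurons in this rise was not tested. In the control the called nuclei had 448 against 254 CPM, and the injured clusters of the IOT libraries 574, 396, 543 and 481 CPM.

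Of the 11 Kv pore genes 10 fell and 1, Kcna1, rose. Kcnb2 (chr1:15287254-15723750, plus strand) had 809, 371, 716 and 1277 CPM in injured and 1958, 1139, 2007 and 1904 CPM in uninjured nuclei of days 2, 7, 21 and 75. Each library showed the fall, which was smallest at day 75. It fell 2.28-fold (log2 fold change -1.19, SE 0.12, edgeR adjusted p = 1.14e-05), and the called control nuclei had 752 against 1798 CPM. Kcnd3 (chr3:105452330-105674002, plus strand) had 97.5, 44.1, 58.9 and 162 CPM against 206, 169, 164 and 335, with no overlap, and fell 2.41-fold (log2 fold change -1.27, SE 0.11, edgeR adjusted p = 2.72e-06). Against large neurons its fall was 0.59 on the log2 scale, and the called control nuclei had 65.5 against 229 CPM. The other Kv4 pores, Kcnd1 and Kcnd2, fell 1.38-fold and 1.70-fold, and of these Kcnd2 did not pass the test against small neurons (log2 fold change -0.27).

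Among the Kv1 genes, Kcna6 (chr6:126708329-126740674, minus strand) had 37.8, 26.2, 38.3 and 65.5 CPM in injured and 67.0, 115, 71.1 and 94.6 CPM in uninjured nuclei, again with no overlap, and fell 1.92-fold (log2 fold change -0.94, SE 0.16, edgeR adjusted p = 0.000703). Kcna4 fell 1.89-fold and Kcna2 1.55-fold. For Kcna2, found at the juxtaparanodes of myelinated axons, the fall reached 0.93 on the log2 scale against large neurons and was -0.13, short of the test, against small neurons. Its neighbor in heteromers, Kcna1, had 178, 132, 143 and 560 CPM in injured and 173, 126, 107 and 374 CPM in uninjured nuclei, ranges that overlap, and rose 1.25-fold. That rise turned to a log2 fold change of -0.22 against large neurons, and of -0.41 in the injured clusters. Of the Kv3 pores, Kcnc4 (chr3:107438303-107459552, minus strand) had 17.5, 13.1, 20.6 and 47.3 CPM in injured and 36.5, 61.3, 35.4 and 53.7 in uninjured nuclei and fell 1.80-fold (log2 fold change -0.85, SE 0.19, edgeR adjusted p = 0.00533). Kcnc1 fell 1.58-fold. Kcnc2 fell 1.99-fold, but against large neurons its log2 fold change was 0.36. Of the classes counted as large, it averaged 27.1 CPM in the large mechanoreceptor-like and 214 in the Ntrk2 mechanoreceptor-like class.

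**Figure D4:**
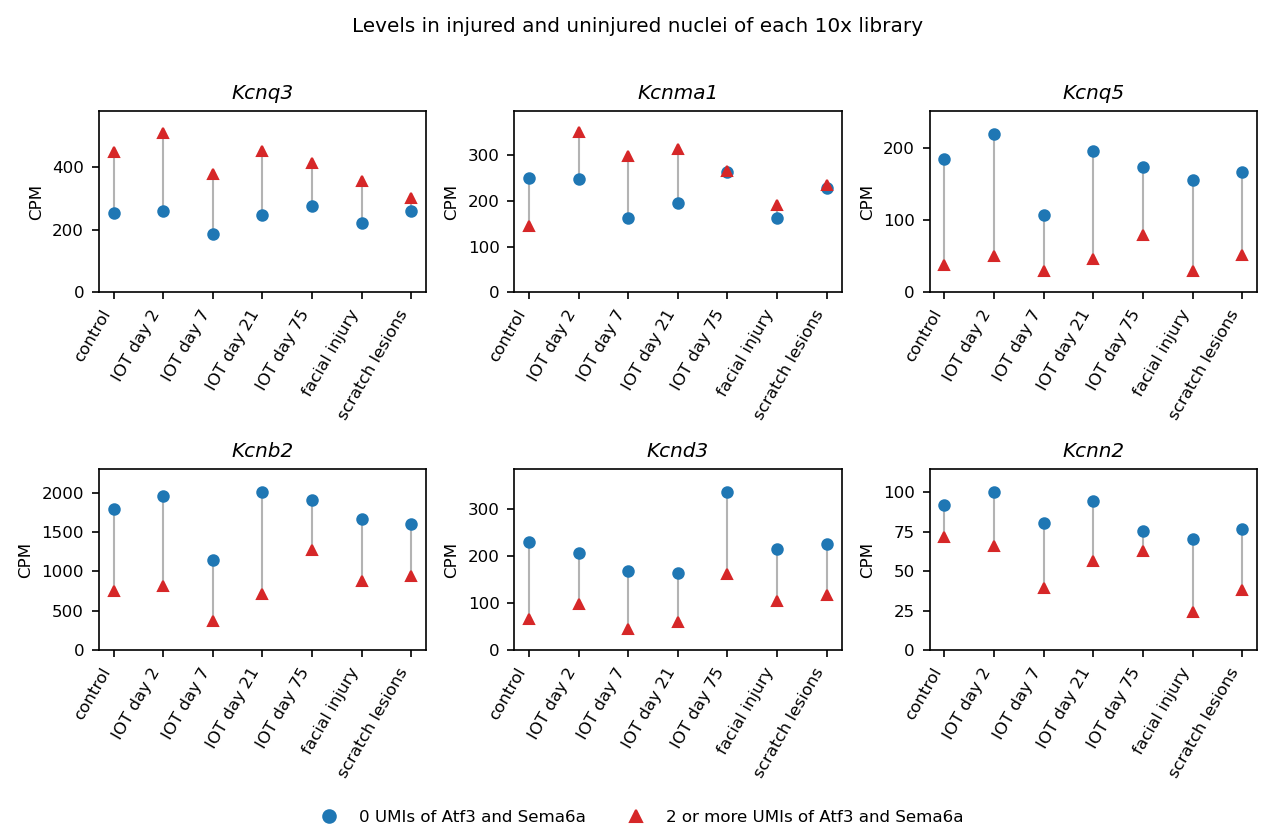
CPM of 6 genes in injured (triangles) and uninjured nuclei (circles) of the 7 10x libraries, 1 library per position. Kcnq3 triangles lie above their circles and Kcnq5, Kcnb2, Kcnd3 and Kcnn2 triangles below them in every library, the control included, while Kcnma1 falls in the control and is higher in injured nuclei of all 6 injury libraries.

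Of the 4 KChIP genes 3 fell, and of the 5 silent subunits 3 fell. Kcnip4 (chr5:48389502-49524907, minus strand) had 3014, 1409, 1935 and 2239 CPM in injured and 4642, 2645, 4664 and 3896 CPM in uninjured nuclei, and fell 1.81-fold (log2 fold change -0.86, SE 0.10, edgeR adjusted p = 3.03e-05). The called control nuclei had 1549 against 4372 CPM. Kcnip2, the KChIP best known from the heart, fell 2.56-fold and Kcnip1 1.62-fold, yet the log2 fold change of Kcnip2 was 0.13 against large neurons and that of Kcnip1 0.01 against small neurons. Kcnip1 shares its strand with the overlapping gene 4930469K13Rik, so its counts are uncertain. Kcnip3, which also acts as a transcriptional repressor, had a log2 fold change of -0.33 (edgeR adjusted p = 0.0874). Of the silent subunits Kcng3, Kcnv1 and Kcns1 fell 2.67-, 2.57- and 1.72-fold, but against small neurons the log2 fold change of Kcns1 was 0.25. Kcnv1 rested on 0 to 8 UMIs in the injured nuclei of an IOT library. Kcng4 and Kcns3 did not pass the test, with log2 fold changes of 0.46 and -0.09.

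Of the 5 KCNH genes 2 rose, 2 fell and 1 did not pass the test. The Eag genes Kcnh1 and Kcnh5 rose 1.23-fold and 1.39-fold. Kcnh5 had 76.4, 51.5, 117 and 74.0 CPM in injured and 74.5, 44.8, 70.0 and 44.2 CPM in uninjured nuclei, ranges that overlap. Neither rise held against large neurons, where the log2 fold changes were -0.02 and -0.13, and the called control nuclei had 130 against 64.1 CPM of Kcnh5. The Erg gene Kcnh7 (chr2:62693414-63184287, minus strand) had 1139, 465, 1393 and 1138 CPM in injured and 1709, 901, 2153 and 1246 in uninjured nuclei and fell 1.44-fold (log2 fold change -0.53, SE 0.097, edgeR adjusted p = 0.00143). Its relative Kcnh2 had a log2 fold change of -0.14 and did not pass the test. The Elk gene Kcnh8 fell 1.59-fold, but against large neurons it was higher, with a log2 fold change of 0.57.

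Among channels gated by calcium or sodium, Kcnma1 went against the rest. Kcnma1 (chr14:23289431-24014491, minus strand) had 350, 297, 315 and 265 CPM in injured nuclei of days 2, 7, 21 and 75 and 248, 163, 197 and 263 CPM in uninjured nuclei. All injured values exceeded all uninjured ones, at day 75 by very little. It rose 1.46-fold (log2 fold change 0.55, SE 0.12, edgeR adjusted p = 0.00472). The called control nuclei went the other way, with 144 against 251 CPM. The rise was 0.73 on the log2 scale against large neurons and 0.32 against small neurons, where it missed the threshold (edgeR adjusted p = 0.053). In injured clusters Kcnma1 reached 428, 325, 418 and 412 CPM.
Of the small-conductance genes, Kcnn1 and Kcnn2 fell and Kcnn3 was not tested. Kcnn2 had 65.9, 39.2, 56.5 and 62.9 CPM in injured and 100.2, 80.5, 94.0 and 75.1 CPM in uninjured nuclei, without overlap, and fell (log2 fold change -0.58, SE 0.11, edgeR adjusted p = 0.00183). Kcnn1 fell 1.89-fold. The sodium-activated genes Kcnt2 and Kcnt1 fell 3.20-fold and 1.99-fold, both without overlap between groups. Kcnt2 had 28.3, 22.1, 20.6 and 36.6 CPM against 111, 48.8, 126 and 72.8 CPM, and against large neurons its log2 fold change of -0.64 did not pass the test. Of the classes counted as large, Kcnt2 averaged 11.1 CPM in the large mechanoreceptor-like and 132 in the myelinated nociceptor-like class. In the called control nuclei it was 22.3 against 103 CPM.

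Of the remaining genes, the G protein-gated Kcnj6 and Kcnj3 fell 2.14-fold and 1.31-fold, Kcnj6 with 4 to 18 UMIs in the injured nuclei of each IOT library. Against small neurons the log2 fold change of Kcnj3 was 0.23. The two-pore gene Kcnk2 fell 1.38-fold but was higher against large neurons, with a log2 fold change of 0.41. Kcnk1 and Kcnk18 did not pass the test, with log2 fold changes of -0.13 and -0.95 (edgeR adjusted p = 0.547 and 0.0555). For Kcnk18 9 of 17 alternatives did pass, all in the same direction, among them the reference of large neurons (log2 fold change -1.26). Kcnk18 had 6.95, 0.817, 2.36 and 19.6 CPM in injured and 12.9, 17.9, 12.2 and 19.8 CPM in uninjured nuclei.

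Whether injured nuclei had levels found in no uninjured cluster was described without a test. In the 6 injury libraries each gene's level in the called nuclei was set beside those of all uninjured clusters of at least 50 nuclei. None of 228 such values (38 genes in 6 libraries) lay below or above all clusters. For the nuclei of the injured clusters 5 of 228 did, among them Kcnma1 at day 21, where 418 CPM exceeded the highest cluster's 390 CPM within the counting intervals. For the other 4, Kcnd1, Kcnt1, Kcnn2 and Kcns1, the injured clusters lay below all others in 1 library each. A mixture of clusters cannot lie outside the range of its clusters. Part of the called nuclei lay in those same clusters, so the comparison cannot show what injury does. The share of values outside over all genes was not computed.

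The injury program marked 2 clusters, which held part of the called nuclei as given above, 1 led by Glis3 (1161 nuclei of the IOT libraries) and 1 by Gal (321 nuclei), and 7 potassium channel genes had ranges over the 4 IOT libraries that did not overlap between them. They were 4 genes higher in the Glis3 cluster, as for 3.56% of all genes, and 3 higher in the Gal cluster, as for 2.8%. Kcnq3 had 657, 470, 607 and 508 CPM in the Glis3 cluster and 215, 107, 167 and 276 CPM in the Gal cluster at days 2, 7, 21 and 75. Kcnh5 had 61.1, 43.0, 75.9 and 86.8 CPM against 8.03, 11.9, 27.9 and 15.3. Kcnh1 and Kcnh2 were also higher in the Glis3 cluster, 2.60-fold and 2.16-fold. Kcnh8 went the other way, with 21.9, 12.3, 16.9 and 31.0 CPM in the Glis3 and 219, 63.7, 377 and 199 CPM in the Gal cluster, and Kcnc2 and Kcnk2 were 6.85-fold and 4.65-fold higher in the Gal cluster. The Gal cluster held as few as 12 nuclei in a library. The potassium channel genes were left out of the clustering, but the clusters are groups made from these nuclei, so the values are a description with no test.

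**Figure D5:**
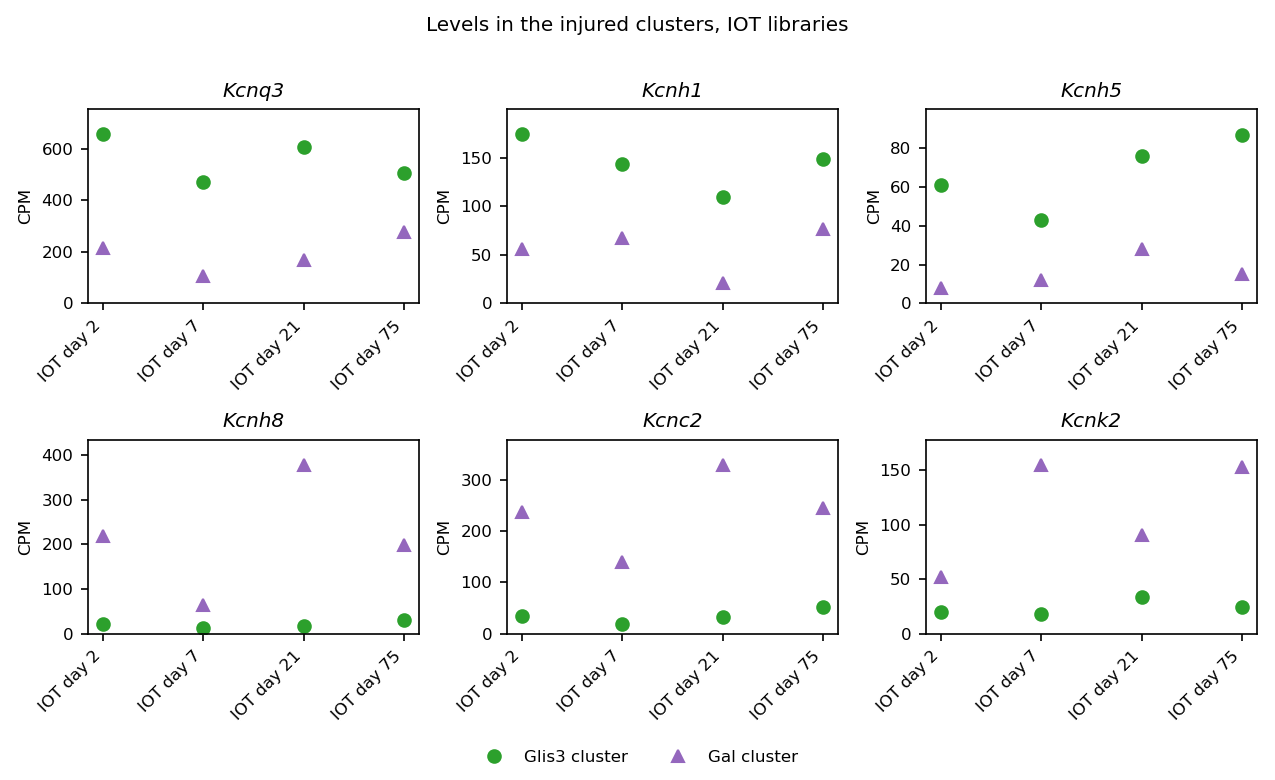
CPM of 6 genes in the injured clusters led by Glis3 (circles) and by Gal (triangles) at IOT days 2, 7, 21 and 75. Circles lie above triangles at all 4 days for Kcnq3, Kcnh1 and Kcnh5 and below them for Kcnh8, Kcnc2 and Kcnk2.

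After the milder injuries fewer changes passed the test, which had less power there. In simulated data of a chosen spread, 40% of changes of 1 on the log2 scale were recovered for the milder injuries and 71% for IOT. Kcnq5, Kcnn2, Kcnd3, Kcnb2, Kcnip1, Kcnip4, Kcnh7 and Kcnh8 fell and 0 rose (edgeR, 37 genes tested; 21 and 2 at an unadjusted p under 0.05, and 7 and 1 by DESeq2), where 1.34% of all genes fell and 1.46% rose. The median log2 fold change was -0.51, against -0.06 for all genes. Kcnq5 had 29.5 and 51.5 CPM in injured nuclei after facial injury and with scratch lesions and 155 and 166 CPM in uninjured nuclei (log2 fold change -1.99, SE 0.24, edgeR adjusted p = 0.000386). Kcnn2 had 24.1 and 38.2 CPM against 70.3 and 76.3 CPM (log2 fold change -1.24, SE 0.20, edgeR adjusted p = 0.00371). Against large neurons 9 genes fell and 1 rose (1.58% and 2.12% of all genes), and against small neurons 15 and 7 (4.89% and 6.49%). Kcnb2, Kcnn2 and Kcnq5 fell in all 3 comparisons, a pattern of 0.24% of all genes, and 0 rose in all 3, where 0.971% did. With 1 or more UMIs of each gene 14 fell and 0 rose (3.52% and 3.03%), and for injured clusters 19 and 1 (4.68% and 5.12%). With the facial injury library or the scratch lesions library left out, 1 fall was left, that of Kcnq5, in fits where the lone milder library was assumed to vary like the IOT libraries.

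No gene differed between IOT and the milder injuries by a test of the difference itself. In edgeR 0 of 37 passed (7 at an unadjusted p under 0.05; 0 by DESeq2), and 0.0252% of all genes were higher and 0.0126% lower. Kcnma1 had log2 fold changes of 0.55 after IOT and 0.09 after the milder injuries, Kcnq3 of 0.90 and 0.39, Kcnn2 of -0.58 and -1.24, and Kcnj6, on 1 and 16 UMIs in the milder libraries, of -1.10 and 0.20. These contrasts do not show that the injuries act alike. They also set unlike times side by side. The IOT effect pools days 2, 7, 21 and 75, whereas the paper took facial injury at the earliest of these days. The paper gives no day for the scratch lesions.

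No slope over the days after IOT passed the test either (edgeR on 8 sums, 2 residual degrees of freedom; 0 of 37 genes, 7 at an unadjusted p under 0.05, 0 by DESeq2, and 0% of all genes in either direction). For 21 of the 26 genes that fell, day 75 was the library closest to no change, and for 16 day 7 was the lowest. How often other genes that fell show these patterns was not computed, so the counts are not particular to potassium channel genes. A fit without day 2 had fewer sums and fewer residual degrees of freedom. In it the slope rose for 14 genes and fell for 2, Kcnma1 and Kcnq3, where 2.29% and 2.45% of all genes did. Over the same days the share of called nuclei in injured clusters went from 84.3% at day 7 to 28.8% at day 75, and the part of this in the slope was not tested. Within the injured clusters themselves, 0 slopes passed.

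Other genes of the pathway moved less uniformly. Of 40 further potassium channel genes listed in all 6 injury tables, 34 were tested, 10 fell, 3 rose and 21 did not pass after IOT, with a median log2 fold change of -0.24. The largest falls were those of Kcnmb1 (log2 fold change -2.07), a beta subunit of the large-conductance channel, Kcnh6 (-1.57), Dpp10 (-1.16), an auxiliary subunit of Kv4 channels, Kcnmb2 (-1.04) and Kcng2 (-0.86). Dpp10 fell against both large and small neurons (-0.84 and -1.55), as did Kcnmb1 (-1.52 and -2.67). Against large neurons Kcnh6, Kcnmb2 and Kcng2 had log2 fold changes of -0.06, 0.03 and 0.27, none past the test. Among the genes that rose were Kcnj10 (1.02) and Kcnu1 (0.92), a channel known from sperm. Kcnj10 is the inward rectifier of satellite glia, whose summed markers were higher in the called nuclei of all 7 libraries, and the part of this in its rise was not tested.

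In uninjured nuclei the levels varied between libraries, and an order by injury was not tested. The highest of the 7 10x libraries exceeded the lowest by a median of 2.01-fold over the 38 genes, from 1.39-fold for Kcnc1 to 4.26-fold for Kcng4. The control lay strictly between the lowest and the highest library for 35 genes, and the share of all genes with this pattern was not computed. Kcna1, a short gene of 5.99 kb, ranged from 107 CPM at day 21 to 374 CPM at day 75, 3.50-fold, with 155 CPM in the control. Since each condition was 1 library, such spreads are between libraries and no condition can be set apart from its library. In the Drop-seq control the same class was highest for 27 of 37 genes, under another protocol.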

How the data were processed

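Nuclei of mouse trigeminal ganglia were profiled by single-nucleus RNA sequencing in 8 tables. The authors counted exonic and intronic reads on mm10, dropped outlier and non-neuronal nuclei, and deposited tables of UMI counts. The submitters' processing notes name Seurat 2, STAR 2.5.3a, Cell Ranger 2.1.0 and bcl2fastq 2.17. The annotation version was not stated.

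The members and lists were chosen with earlier results of these data known. Counts were scaled to 10000 per nucleus and clustered (leidenalg 0.10.2, resolution 1) without Kcn genes, Dpp6, Dpp10, Atf3 and Sema6a. A cluster took a class name from its markers (score of at least 1, 3 markers above 2-fold, lead of 0.5), thresholds set after seeing the data. No doublet caller was run. A cluster of 105 nuclei carried markers of 2 classes and stayed unnamed. A cluster counted as small if it bore a small-class name or a positive small-class score, and that score exceeded its large mechanoreceptor score. The others counted as large, apart from the injured clusters and the cluster with markers of 2 classes.

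Within each library, raw counts were added up by injury state and tested with edgeR 4.0.16 (quasi-likelihood, TMM, its low-count filter, library as a block, Benjamini-Hochberg adjustment; 4 residual degrees of freedom). Each standard error was derived from F and the fold change. Nuclei are not replicates. With the block, p-values rest on how the difference between injured and uninjured sums varied between libraries. The fits were tested on simulated data. Intervals are 95% (Clopper-Pearson for shares, exact Poisson for CPM) and cover counting error only. Coordinates come from GENCODE vM21. Named genes were all members and up to 5 largest rises and falls among other potassium channel genes. One gene that this rule names is not reported here. Alternatives were other injury rules, references restricted by neuron size, thinning to 1104 UMIs (1435 10x nuclei below that), no TMM, DESeq2 1.42.0, no filter, no block and each library left out.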

Additional observations from a re-analysis of the deposited data

Results flagged for a closer look

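Of 36 genes with a ratio in all 4 IOT libraries, 2 had 1 library far from the others, where chance alone sets 1 in 20 such groups apart. For Kcnd1, a Kv4 pore, the log2 ratio of injured to uninjured nuclei was -1.51 at IOT day 7, and the nearest of the other 3 libraries was at -0.42. For Kcnh1, an Eag channel, it was 0.35 at IOT day 75, and the nearest was at 0.22.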

How the results depend on the processing

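Limits come first. Each condition is 1 library, the injured nuclei were called from 2 genes, and called nuclei of the control, with no injury, already differed from the rest. The count of genes that fell after IOT was 26, and was 18 (against small neurons) to 33 (injured clusters) under the alternatives, except without the library block, where 3 fell and 1 rose. Of 629 single-gene values after IOT, 493 kept direction and side of the threshold, 82 were no longer past it, 26 newly passed and 28 reversed, and of 136 for the 8 genes that fell after the milder injuries 91, 44, 0 and 1.

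The count that rose after IOT (5) was 2 with Atf3 alone, 2 on thinned nuclei, 8 against small neurons, 2 with 1 or more UMIs of each gene, 2 for injured clusters and 3 without TMM. Leaving out 1 library gave 2 to 5 rises (2 without IOT day 21) and 21 to 27 falls. After the milder injuries, rises (0) became 1 with 1 or more UMIs, 1 against large and 7 against small neurons, 1 for injured clusters and 1 with DESeq2, and falls (8) became 18 with Atf3 alone, 5 on thinned nuclei, 15 against small neurons, 14 with 1 or more UMIs of each gene, 19 for injured clusters and 0 without the block. Leaving out 1 library gave 0 to 2 rises and 1 to 13 falls (1 without either milder library, 13 without IOT day 7, and 2 rises without IOT day 75). The difference between injuries, 0 each way, became 2 higher and 2 lower with Atf3 alone, and 1 and 2 for injured clusters. The slope over days, 0 each way, gave 0 to 14 rises and 0 to 2 falls with 1 library left out, the higher values without day 2.

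Reversed log2 fold changes after IOT were, against large neurons, -0.22 (Kcna1), 0.36 (Kcnc2), -0.11 (Kcng4), -0.022 (Kcnh1), -0.13 (Kcnh5), 0.57 (Kcnh8), 0.13 (Kcnip2) and 0.41 (Kcnk2). Against small neurons they were 0.85 (Kcnh2), 0.013 (Kcnip1), 0.22 (Kcnip3), 0.23 (Kcnj3), 0.58 (Kcnk1), 0.25 (Kcns1) and 0.55 (Kcns3). With Atf3 alone they were -0.16 (Kcna1), -0.86 (Kcng4), -0.027 (Kcnh1) and -0.20 (Kcnh5), for injured clusters -0.41 (Kcna1), -1.75 (Kcng4) and -0.18 (Kcnh5), with 1 or more UMIs 0.013 (Kcnh2), 0.12 (Kcnk1) and 0.13 (Kcns3). Kcng4 was at -0.46 on thinned nuclei and -0.20 with 1 or more UMIs of each gene, and Kcns3 at -0.24 to 0.047 with 1 library left out, the highest without IOT day 7. After the milder injuries Kcnh8 was at 0.34 against large neurons. The cause of these changes was not tested. The rules using each gene and the injured clusters were added after seeing the data. The highest class was the same for 38 of 38 genes at resolution 2, 36 with nuclei weighted equally and 27 of 37 in Drop-seq. Injured and uninjured sums of 1 library were paired through the library block, and the labels give no replicate number that pairs the 10x libraries.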
